A study of Mus musculus with 2 samples.

Results

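The neuroendocrine lineage factors described here are 10 transcription factor genes that do not belong to the basic helix-loop-helix class: Onecut1, Onecut2, Onecut3, Pou3f2, Insm1, Foxa2, Prox1, Nkx2-1, Myt1 and St18. They were taken by name, out of 21887 protein-coding genes, and their chromatin was read from all deposited ATAC-seq peaks that overlapped the gene body or the 50 kb on either side of it, called the gene window below. ATAC-seq marks open DNA by letting a transposase insert sequencing adapters there. Both libraries came from prostate tumor cells of C57BL/6 mice and differed in the length of tamoxifen treatment: 2 weeks for W2, the early stage, and 6 months for M6, the late stage on the way to neuroendocrine prostate cancer. The sources used here do not give the alleles of the mice, the driver of any tamoxifen-controlled recombinase, the age of the animals or how many animals a library holds. With 1 library per time point, there is no replicate check and no test of the time points, and intervals cover counting error only. The lists held 5735 W2 and 22570 M6 peaks on the chromosomes 1 to 19, X and Y (build mm10). Read numbers are not given in these sources, and the lowest local background in each list, read as relative depth, was 2.96 tags for W2 and 2.65 for M6.

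Neuroendocrine prostate cancer is a form in which tumor cells lose features of secretory epithelium and take on those of nerve and hormone-secreting cells. Transcription factors that direct neural and endocrine development are switched on in such tumors. ONECUT factors bind DNA through a cut domain and a homeodomain, POU3F2 (also called BRN2) through a POU domain, and INSM1, MYT1 and ST18 through zinc fingers. FOXA2 is a forkhead factor that can bind closed chromatin, and PROX1 and NKX2-1 are homeobox factors.

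The windows of the 10 genes held 2 peaks in W2 and 22 in M6. More peaks in M6 than in W2 were found at 7 of the 10 genes (Onecut1, Onecut2, Onecut3, Insm1, Prox1, Myt1 and St18), fewer at 0, and none in either library at 3 (Pou3f2, Foxa2 and Nkx2-1). Over all protein-coding genes, 64.2% of the windows had more M6 than W2 peaks, 2.07% had fewer and 24.6% had no peak, so these counts were close to the background. A W2 peak was present at 2 of the 10 windows (Onecut1 and Myt1), against 48.3% of all windows. An M6 peak was present at 7, against 74.4%. M6 peaks without any W2 peak were present at 5 windows (Onecut2, Onecut3, Insm1, Prox1 and St18), against 27.1% of all windows.

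**Figure D1:**
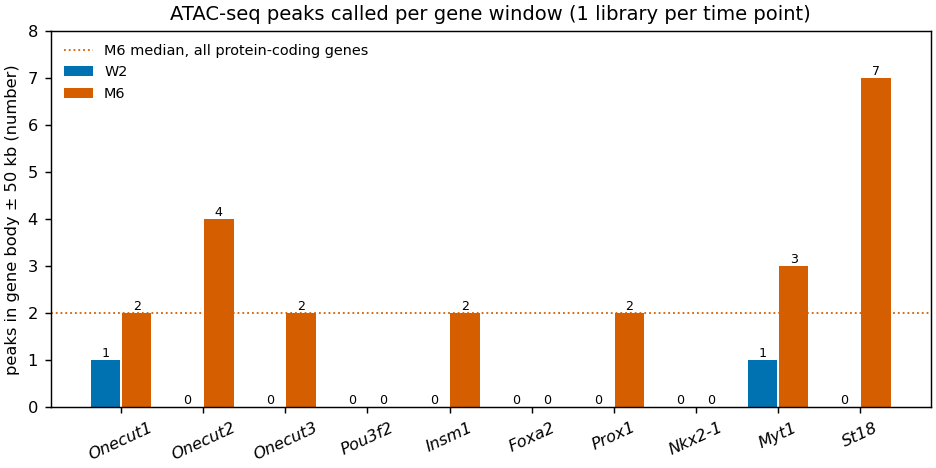
Number of peaks (vertical axis) in the gene body and 50 kb on either side of each of the 10 genes, in W2 (blue) and M6 (orange), with 1 library per time point. Onecut2, Myt1 and St18 stand above the median of 2 M6 peaks over all protein-coding genes (dotted line), and W2 peaks are present at Onecut1 and Myt1.

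Counted by length, the 10 windows had 0.124 W2 peaks per 100 kb (exact Poisson 95% interval 0.0150 to 0.447) and 1.36 M6 peaks per 100 kb (0.852 to 2.06). All protein-coding windows had means of 0.531 and 1.57 peaks per 100 kb, in which gene-dense regions count several times. The M6 level of the 10 genes thus lay within counting error of that mean, and the W2 level lay below it. The 10 windows were poor in other genes: 6 of them (Onecut1, Onecut2, Foxa2, Prox1, Nkx2-1 and St18) held no other protein-coding gene, against 11.3% of all windows, and 60.3% of all W2 peaks were at a gene end, that is, at most 1 kb from either end of a protein-coding gene. Among the 2484 windows with no other protein-coding gene, the means were 0.118 W2 and 0.659 M6 peaks per 100 kb. The 6 member windows of this kind had 0.0891 and 1.34, for which no interval was computed. St18 alone gave 7 of their M6 peaks, which formed 4 sites with peaks less than 1 kb apart counted as 1. A W2 peak was present in 19.8% of such windows and in 1 of the 6, and more M6 than W2 peaks were found in 44.7% and in 4 of the 6. What part the neighbouring genes had in the W2 level was not tested.

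The ONECUT genes had peaks in M6 at all 3 members, but in different places. Onecut2, a factor linked to androgen receptor-independent prostate cancer, had 4 M6 peaks and 0 W2 peaks. The strongest had a −log10 q of 14.1, the significance that the authors' peak caller gave it, and covered the lower-coordinate end of the gene (chromosome 18, 64340032 to 64398488), with its summit 88 bp outside it. This placing is given without a direction of transcription, since the gene table holds no strand and Onecut2 has no entry in the table of start sequences used here. A peak inside the gene, with its summit 2.86 kb from that end, had a −log10 q of 8.22. Another, at 10.7 kb, had a −log10 q of 2.02, above 0.554% of the M6 list. The remaining one lay 36.0 kb outside the gene (chromosome 18, 64303819 to 64304242), with a fold of 6.48 over local background and a −log10 q of 11.4. The nearest W2 peak was 90.5 kb from the gene.

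Onecut1, the founding member of the family, which acts in liver and pancreas development, had no peak in its body (chromosome 9, 74861921 to 74889648) or within 10 kb in either library. Its window held the peak with the highest fold of all 22: an M6 peak 41.7 kb before the annotated start, inside the long noncoding RNA gene Gm33562 (chromosome 9, 74820050 to 74820449), whose fold was 8.17 and whose −log10 q of 18.6 exceeded 92.7% of the M6 list. On the other side of the gene, each library had 1 peak outside protein-coding genes. The M6 peak (74909104 to 74909593) had 25 tags at its summit (exact Poisson 95% interval 16.2 to 36.9) and the W2 peak (74910437 to 74910636) had 20 (12.2 to 30.9). They did not overlap, since 0.844 kb lay between them, and were therefore not counted as shared.

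Onecut3, the other family member, had 0 W2 peaks and 2 M6 peaks, both more than 40 kb from the gene (chromosome 10, 80494906 to 80517266). The stronger, 48.5 kb below its lower-coordinate end, lay outside genes and had a −log10 q of 7.03, and the weaker (3.89) lay inside the neighbouring gene Rexo1. No peak lay in the gene or within 10 kb of it.

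Insm1, a zinc finger repressor that endocrine cells need to differentiate, had 2 M6 peaks, and its nearest W2 peak was 287 kb away. The peak inside this short gene (chromosome 2, 146221997 to 146225020) covered 146223609 to 146223809 and had a −log10 q of 5.25. The other (146218237 to 146218594) lay 3.62 kb below the gene and had a −log10 q of 5.65. Their folds were 3.49 and 3.34, from 25 and 29 tags at the summits over local backgrounds of 6.44 and 7.98 tags, both above the M6 list median of 3.52. No peak of the 24 had a background of 3 times its library median or more.

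Prox1, which acts in lymphatic vessels and neural progenitors, had 2 M6 peaks, both inside the gene (chromosome 1, 190118035 to 190170827), and 0 W2 peaks within 250 kb. Their summits lay 13.2 and 39.8 kb downstream of the nearest annotated start, with −log10 q values of 4.62 and 6.82 and 18 and 21 tags. Since PROX1 also marks lymphatic endothelium, endothelial genes were counted: Cdh5 and Kdr had no peak in their windows in either library, Pecam1 had 0 W2 and 3 M6 peaks, and Tek had 1 and 2. The part of endothelial cells in the Prox1 peaks was not tested.

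Myt1 and St18 encode related zinc finger factors of nerve cells. Myt1 (chromosome 2, 181763332 to 181827775) had 1 W2 and 3 M6 peaks in its window. A weak M6 peak covered its first annotated start (181763129 to 181763454), with a summit 123 bp upstream, 18 tags over a background of 5.28, a fold of 3.03 and a −log10 q of 2.81, stronger than 4.74% of the M6 list. The gene body held an M6 peak (181775821 to 181776185) of −log10 q 6.16. The remaining M6 peak and the W2 peak were the same site, at the start of the neighbouring gene Polr3k, which encodes a subunit of RNA polymerase III. That site was the single one shared between the libraries in the 10 windows. It had 27 tags in W2 (17.8 to 39.3) and 21 in M6 (13.0 to 32.1), and the intervals overlapped. The log2 ratio of M6 to W2 tags there was −0.36, whereas over all 4631 shared pairs the median was 0.54, with more tags in M6 at 85.7%. No W2 peak of the 10 windows lay in or at an end of one of the 10 genes.

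St18 had the most peaks, 7 in M6 and 0 in W2, all inside its body of 373.7 kb (chromosome 1, 6487231 to 6860940), and its nearest W2 peak lay 228 kb away. It is by far the longest of the 10 genes, and per 100 kb its window had 1.48 M6 peaks, a density that 48.8% of all protein-coding windows reached. The peaks formed 4 sites. One site, 242 kb above the lower-coordinate end, consisted of a pair of peaks 180 bp apart, of which the first (6729217 to 6729595) had 48 tags (35.4 to 63.6), a fold of 6.23 and a −log10 q of 20.4, the highest of all 22. The second (6729776 to 6730122) had 34 tags and a −log10 q of 9.41. Another site, at 23.1 to 24.0 kb, consisted of 3 peaks of 11 to 14 tags separated by 137 and 270 bp, with −log10 q values of 2.02 to 3.75. Single peaks stood at 171 kb (7.74) and 361 kb (2.06). With peaks less than 1 kb apart counted as 1 site, the M6 number over the 10 windows was 19 in place of 22.

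**Figure D2:**
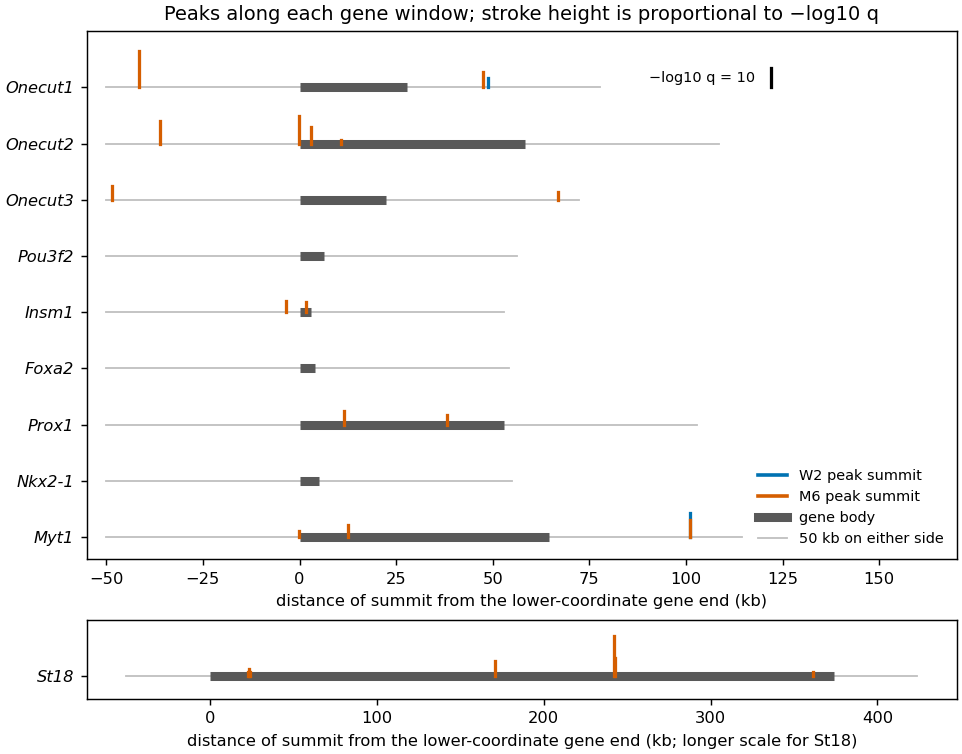
Summit positions of all 24 peaks along the 10 gene windows, in kb from the lower-coordinate gene end, for W2 (blue) and M6 (orange). Stroke height is proportional to −log10 q, on the same scale in both panels, and St18 has a longer horizontal scale. The Onecut1 and Onecut3 peaks lie outside the genes, the Prox1 and St18 peaks inside, and the rows of Pou3f2, Foxa2 and Nkx2-1 are empty.

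Pou3f2, Foxa2 and Nkx2-1 had no peak in their windows in either library. Pou3f2, a neural factor reported in neuroendocrine prostate cancer, had none within 100 kb either. Its nearest M6 peak lay 124 kb away (chromosome 4, 22357418 to 22357928, −log10 q 6.78), and its nearest W2 peak 706 kb away. Foxa2, an endoderm factor found in neuroendocrine prostate tumors, had its nearest M6 peak at 61.6 kb (chromosome 2, 147980880 to 147981283, −log10 q 4.03) and its nearest W2 peak at 625 kb. With 100 kb on either side, the Foxa2 window had 4 M6 peaks and 0 W2 peaks. Nkx2-1, also known as thyroid transcription factor 1 and used as a marker of small cell carcinoma, had its nearest M6 peak at 90.3 kb (chromosome 12, 56441242 to 56441586, −log10 q 10.3) and its nearest W2 peak at 387 kb. Regions with fewer tags than the weakest listed peak, 12 in W2 and 10 in M6, are outside both lists, so a missing peak means only that none was listed.

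Gene starts of the group were mostly without a peak. Within 1 kb of a gene end, 0 of the 10 genes had a W2 peak, which allows a share of up to 30.0%, and 2 (Onecut2 and Myt1) had an M6 peak. The background over all protein-coding genes was 18.4% with such a peak in W2, 39.7% in M6, and 21.9% in M6 but not W2. Start sequences from RefSeq (GRCm38.p6, 250 bases before to 50 after an annotated start) were at hand for 6 of the genes, in 11 windows. They are shown for 3 starts to set the 1 start with a peak beside a pair without, all 5′ to 3′ on the strand of the gene, with each CG dinucleotide in capitals. The Myt1 window is chr2:181763082-181763381 on the plus strand, that of Onecut1 chr9:74861671-74861970 on the plus strand, and that of Pou3f2 chr4:22488317-22488616 on the minus strand.
Myt1 (M6 peak): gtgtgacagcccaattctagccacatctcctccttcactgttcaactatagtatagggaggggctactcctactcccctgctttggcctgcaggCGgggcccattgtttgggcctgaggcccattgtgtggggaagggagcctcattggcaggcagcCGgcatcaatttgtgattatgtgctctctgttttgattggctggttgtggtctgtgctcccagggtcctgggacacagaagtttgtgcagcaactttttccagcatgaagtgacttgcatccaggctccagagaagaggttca
Onecut1 (no peak): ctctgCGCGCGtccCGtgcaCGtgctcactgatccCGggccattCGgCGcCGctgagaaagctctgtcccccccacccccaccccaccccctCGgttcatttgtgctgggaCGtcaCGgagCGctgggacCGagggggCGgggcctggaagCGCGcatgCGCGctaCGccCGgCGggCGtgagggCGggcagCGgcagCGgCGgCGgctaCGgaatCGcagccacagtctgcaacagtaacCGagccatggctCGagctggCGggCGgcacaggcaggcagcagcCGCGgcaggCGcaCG
Pou3f2 (no peak): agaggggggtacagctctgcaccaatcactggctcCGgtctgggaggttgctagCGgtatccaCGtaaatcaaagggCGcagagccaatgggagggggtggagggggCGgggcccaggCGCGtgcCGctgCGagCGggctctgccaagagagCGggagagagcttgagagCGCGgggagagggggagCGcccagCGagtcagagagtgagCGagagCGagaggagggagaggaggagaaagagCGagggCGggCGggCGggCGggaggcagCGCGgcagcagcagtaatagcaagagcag

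The Myt1 start, whose last 253 bases lay under the M6 peak, held 2 CG dinucleotides, more than 11.4% of the 21263 start windows of protein-coding genes. The Onecut1 start held 38, more than 93.5%, and the Pou3f2 start 24, more than 73.1%. Over all windows, M6 peaks were more frequent where CG was: one lay at 1.84% of the 6035 windows with 0 to 4 CG, at 21.4% of those with 5 to 13, at 61.2% of those with 14 to 24 and at 62.6% of those with 25 to 67. Of the group's windows with 14 or more CG, 5 windows of 4 genes (Onecut1, Pou3f2, Foxa2 and Prox1), 0 had an M6 peak. With 3 counts as the limit for 0, which is rough in so small a number, this allows a share of up to 60.0%. That limit lies slightly below the 61.2% and 62.6% of all such windows, and no test was made. In W2 a peak lay at 0.547%, 7.62%, 30.2% and 29.8% of the windows in the same order, and at 0 of the 11. Windows of the same gene are not independent.

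**Figure D3:**
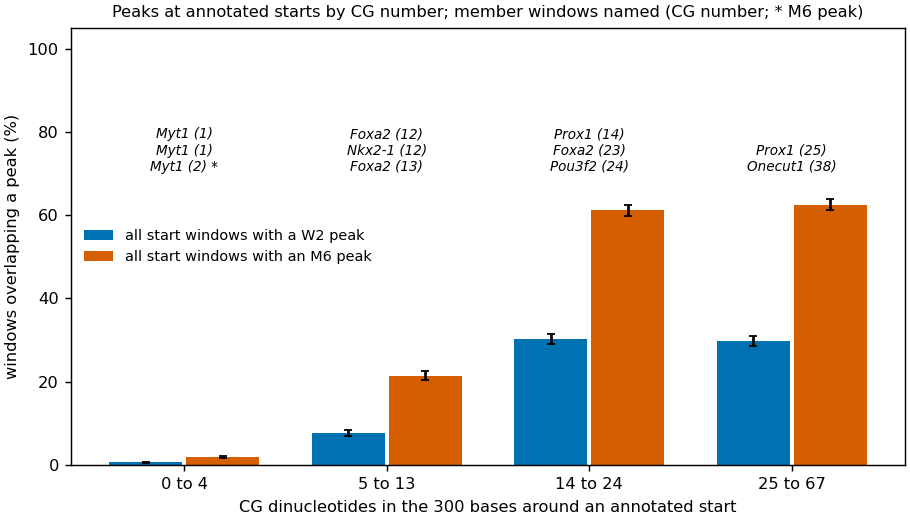
Share of 300-base windows at annotated starts of protein-coding genes that overlap a peak (vertical axis, %), by number of CG dinucleotides in the window, for W2 (blue) and M6 (orange), with exact binomial 95% intervals. Names give the 11 windows of the group with their CG number, and the asterisk marks the 1 with an M6 peak, a Myt1 start with 2 CG. The starts of Onecut1, Pou3f2, Prox1 and one of Foxa2 fall where 61.2 and 62.6% of all windows had an M6 peak, and had none.

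Letters known from the binding motifs of these factors were searched in the start windows on both strands. ATTGAT, from the ONECUT motif, was in 3 of the 11 windows (Foxa2 1, Myt1 2) and in 6.54% of all windows, and 1 of the Myt1 matches lay in the window printed above, on its minus strand from base 162. TGTTTAC, from the forkhead motif, was in 1 window, of Myt1, and in 3.01% of all. AAAGTTT, from the motif of the MYT1 family, was in 2 (Foxa2 and Myt1) and in 4.34% of all. CAAGTG, from the NKX2-1 motif, was in 1 (Prox1) and in 13.1% of all, and ATGCAAAT, the octamer bound by POU factors, in 0 and in 1.66% of all. Of these matches, 0 overlapped a match to another motif. The matches describe the sequence and not binding.

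The M6 peaks of the group were of ordinary strength. Their −log10 q ran from 2.02 to 20.4 with a median of 6.49, against 6.92 for the M6 list, and 10 of the 22 were above that list median. Their folds ran from 3.03 to 8.17 (median 4.27, list 4.71) and their summits from 11 to 48 tags (median 21, list 21). The widths ran from 201 to 609 bp (median 326.5, list 337). At 3 of the 22, 1 at Onecut2 and 2 at St18, the M6 summit had fewer tags than the weakest peak of the W2 list, so an equal number of tags in W2 would not have been listed.

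**Figure D4:**
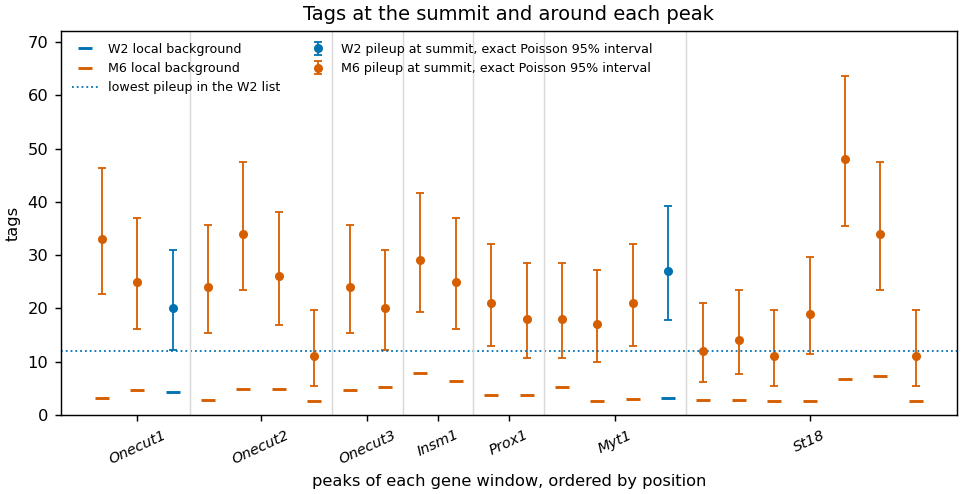
Tags at the summit of each of the 24 peaks (circles, with exact Poisson 95% intervals) and in the local background (dashes), for W2 (blue) and M6 (orange), ordered by position within each gene window. The first peak of the St18 pair at 242 kb, with 48 tags, is the highest, and 3 M6 summits with 11 tags lie under the dotted line, the 12 tags of the weakest W2 peak.

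Of the 22 M6 peaks, 1 overlapped a W2 peak and 21 did not, while 20.2% of the 22570 M6 peaks of the whole list overlapped one. Gene ends held 3 of the 22, against 36.8% of the whole list. By place, 13 lay inside the member gene, 2 at its end, 1 at the end of Polr3k, 1 inside Rexo1 and 5 outside protein-coding genes. M6 peaks away from gene ends had few W2 counterparts in general. Of 14265 such peaks, 9.17% (exact binomial 95% interval 8.70 to 9.65%) overlapped a W2 peak, and of the 19 in the group 0 did, which allows a share of up to 15.8%. The share over all distal M6 peaks lies below that limit, so no difference from them was detectable. The strongest were St18 (−log10 q 20.4) and Onecut1 (18.6), in a class, 15 or more, in which 33.3% of distal M6 peaks had a counterpart. The Onecut2 peak at the gene end (14.1) belonged to a class in which 53.5% of gene-end M6 peaks had one.

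**Figure D5:**
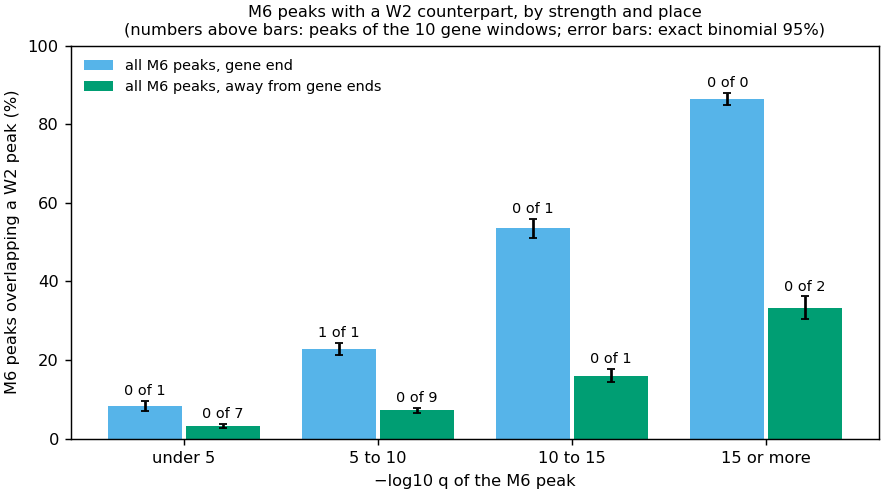
Share of all M6 peaks that overlap a W2 peak (vertical axis, %), by −log10 q of the M6 peak, at gene ends (light blue) and away from them (green), with exact binomial 95% intervals. The numbers above the bars count the peaks of the 10 windows, of which 1, at Polr3k, had a counterpart, and 0 of the 19 away from gene ends.

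The size of the M6 excess changed when both lists were cut to one length. With equal numbers of peaks per library, the strongest M6 peaks down to a −log10 q of 10.8, the windows had 4 M6 peaks (1 at Onecut1, 2 at Onecut2 and 1 at St18) against the 2 W2 peaks. More M6 than W2 peaks were then found at 2 of the 10 genes, Onecut2 and St18, against 14.8% of all protein-coding windows under the same rule, and fewer at 1, Myt1, against 21.8%. These shares are again close to the background. Among these 4 M6 peaks, 0 overlapped a W2 peak.

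Other lineage factors from the same families and their neighbours in development, formed a list of 20 genes. More M6 than W2 peaks were found at 8 of the 20, against 64.2% of all protein-coding windows, and fewer at 0, against 2.07%. No peak in either library was found at 10 of the 20, against 24.6% of all windows. The list had 5 W2 and 16 M6 peaks in all. A W2 peak was present at 4 of the 20, against 48.3% of all windows. Foxa3, a forkhead factor of liver, had 1 W2 and 2 M6 peaks, and Foxa1, the forkhead partner of the androgen receptor, had 2 in each. Rest, the repressor of neuronal genes, had 1 W2 and 2 M6 peaks, and Pou3f1, a POU factor of Schwann cells, had 1 in each. The strongest M6 peaks of the list were those of Foxa3 (−log10 q 15.2, 22.0 kb from the gene), Foxa1 (9.91, 28.0 kb away) and Prox2, the paralog of Prox1 (9.67, 40.3 kb away). Insm2 and Myt1l, paralogs of Insm1 and of Myt1, each had 0 W2 and 2 M6 peaks.

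Genes that mark the neuroendocrine state, 16 in number, had 8 W2 and 57 M6 peaks in their windows, with more in M6 at all 16, against the background of 64.2% given above. The lists in this paragraph were chosen with earlier results of these data known, so the counts are a description only. Window length was not adjusted for, and the window of Syt1, of 613 kb, had 10 of the 57 M6 peaks. As a check of the labelled source, prostate tumor cells, 10 genes of the prostate luminal epithelium had 18 and 44 distinct peaks (Krt8 and Krt18 are neighbours and share some), also with more in M6 at all 10, including Epcam (3 and 4), Cdh1 (4 and 8) and Krt8 (1 and 6). Basal genes had 2 W2 and 4 M6 peaks at 3 genes, leukocyte genes 3 and 6 at 6 genes, fibroblast genes 0 and 3 at 4 genes, and smooth muscle genes 5 and 11 at 3 genes. Ptprc, Lyz2 and Itgam of the leukocyte list and Col1a2 and Dcn of the fibroblast list had no peak in either library. Nerve and Schwann cell genes had 5 W2 and 28 M6 peaks at 5 genes, with Sox10 at 1 and 2 and Rbfox3, a marker of mature neurons, at 0 and 9. Nerve cells use several of the 10 factors, and the part of such cells in the M6 peaks was not tested.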

How the data were processed

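ATAC-seq was measured in 1 W2 and 1 M6 library. The genome build was mm10, and the submitters' processing notes name Bowtie2, deepTools, SAMtools 1.4 and Trim Galore 0.5.0. Peak caller, threshold, duplicate handling and any shift of read ends are not given in these sources. The authors deposited 1 peak list per library, nothing pooled, with a score (10 times the −log10 q, not used), a fold (a linear ratio of the summit over local background), a −log10 p and a −log10 q per peak.

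Peaks were placed with Python 3.11.15 (numpy 2.4.6, pandas 2.3.3, scipy 1.17.1) on gene spans of a RefSeq table of GRCm38.p6, the assembly that mm10 names, which gives no strand or exons. An overlap of at least 1 bp counted. Summit tags and local background were recovered from fold and −log10 p, taking the fold as (tags + 1)/(background + 1) and the p as a Poisson upper tail. A whole number within 0.001 was found for 100% of both lists, and for 100% of 2000 simulated peaks. No test of the time points could be made. Shares carry exact binomial and tags exact Poisson 95% intervals, and limits for a count of 0 use 3 counts. The members, lists and motifs were chosen with earlier results of these data known. All 10 members are named with their strongest peaks. Other genes are named where a peak lies at them or from the lists, of which Epcam, Cdh1, Krt8, Sox10, Rbfox3, Insm2 and Myt1l were picked after their values were seen. Ptprc, Lyz2, Itgam, Col1a2 and Dcn were likewise named by their values, since they had no peak in either library. A gene of the nerve and Schwann cell list is not reported here. Alternatives were the peak threshold, equal numbers of peaks, the window, the placing of a peak, the gene-end width and the overlap that counts as shared.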

Additional observations from a re-analysis of the deposited data

How the results depend on the processing

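More M6 than W2 peaks over the 10 windows were found in all 8 alternatives that counted both libraries there, but the size of the difference changed. Outside the equal-number settings the M6 list was the longer one (22570 against 5735 peaks in full). As reported, 2.07% of all protein-coding windows had fewer M6 than W2 peaks, so the direction is not particular to the 10 genes. With equal numbers, the counts were 4 M6 and 2 W2 peaks. Of 48 values recomputed under 16 settings, 30 stayed within 1.5 times the reported count and 18 did not. The numbers of W2 peaks (reported 2), M6 peaks (22), M6 peaks without a counterpart (21), genes with more M6 peaks (7) and genes with an M6 peak at an end (2) moved as follows. Requiring a −log10 q of at least 5 left 1 W2 and 14 M6 peaks, 13 of them without a counterpart, and 1 gene with an M6 gene-end peak. Equal numbers of peaks, by −log10 q or by fold, gave 4 M6 peaks, 4 without a counterpart, 2 genes with more in M6 and 1 gene with an M6 gene-end peak. With 10 kb on either side, or the gene body alone, the number of W2 peaks was 0, and with 100 kb there were 9 W2 and 47 M6 peaks, 40 without a counterpart. Leaving out peaks at ends of other genes left 1 W2 peak. Settings added after seeing the data (a W2 peak within 1 kb as a counterpart, sites less than 1 kb apart merged, St18 left out, raised background left out) gave 20 M6 peaks without a counterpart and 19, 15 and 22 M6 peaks. No gene-end width gave a W2 gene-end peak. The threshold, equal numbers, the windows and the leaving out of peaks change by construction what is counted, and other causes were not tested. No paired analysis was possible because each time point had 1 library, and no library could be left out. The weakest listed peaks had 12 tags in W2 and 10 in M6, and weaker regions could not be compared.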
